A study of Homo sapiens with 5 samples.

Results

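LIX1L, its paralogue LIX1 and 7 further genes for proteins that bind double-stranded RNA (STAU1, STAU2, TARBP2, PRKRA, DHX9, STRBP and ADARB1) were followed in human hepatic stellate cells after LIX1L was silenced. The 9 genes were taken by name, through the Ensembl identifier of the current symbol, from the 19936 genes in each library. LX-2 is an established, immortalised human line derived from hepatic stellate cells, mesenchymal cells that lay down scar matrix in injured liver. The cells had received either a control siRNA (siControl, 2 libraries) or an siRNA against LIX1L (siLIX1L, 3 libraries), and total RNA was harvested after 48 h. All libraries are from this 1 line, and the sources used here give neither the number nor the sequence of the siRNAs. The question put to these genes was whether LIX1 or other double-stranded RNA-binding genes differed in level once LIX1L was low.

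LIX1L was 5.36-fold lower after LIX1L siRNA, and LIX1 had no read in any of the 5 libraries. None of the other 7 genes passed the test across all genes. STAU1 and DHX9 had the largest positive differences among them, at 1.48 and 1.44 times the control level, and STAU2 the largest negative one, at 0.727 times. Outside the 9, the RNA editing enzyme gene ADAR and the gene of the kinase PKR, EIF2AK2, which carry the same kind of domain, rose 2.75-fold and 3.02-fold.

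The double-stranded RNA-binding domain is a small fold that recognises the shape of an A-form RNA helix more than its base sequence. Proteins that carry it edit, cleave, unwind, transport or destroy structured RNA, and some sense the long RNA duplexes that viruses make. LIX1L and LIX1 are predicted to hold a related domain. In liver, the pathways served by such proteins include the microRNA machinery and the interferon response.

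The reads counted over genes numbered 14856104 to 18294056 per library. Levels are given as RPM, reads per 1000000 of these totals, and 0 reads allow for up to 0.164 to 0.202 RPM (3 reads). The share of reads on genes of the mitochondrial genome was 2.24 and 3.35% in controls 1 and 2 and 1.08 to 1.29% after LIX1L siRNA. Libraries siLIX1L 1 and 2 were the closest pair. The SD of their log2 differences over 13026 genes was 0.22, against 0.47 to 0.82 in the other pairs. It was 0.70 between controls 1 and 2, more than between control 1 and any siLIX1L library (0.64 to 0.66). Between control 2 and the siLIX1L libraries it was 0.76 to 0.82. Whether libraries of a group are separate cultures is not stated in the labels, so the spread that p-values are measured against may be technical only. Library siLIX1L 3, which alone was deposited with read counts, was at 0.47 from both siLIX1L 1 and siLIX1L 2. Whether it was prepared apart from the other libraries cannot be told from these values. Of 12 stellate cell markers, 8 had at least 10 RPM in every library, and LRAT, which esterifies retinol in quiescent stellate cells, was at 0. Their summed level was 3824 and 10328 RPM in the controls and 6477 to 6992 RPM after LIX1L siRNA, most of it in every library from COL1A1 and SPARC. ACTA2, the smooth muscle actin of activated stellate cells, fell from 37.2 ± 2.56 RPM (SD, n = 2) to 10.7 ± 3.54 RPM (SD, n = 3; limma adjusted p = 0.0469 in log2(RPM + 0.5)). The collagen gene COL1A2 was at 0.454 times the control level and passed in DESeq2 (adjusted p = 0.00517) but not in limma (adjusted p = 0.0683 in log2(FPKM + 1)). In the other detected stellate markers the groups overlapped, and none passed in limma or DESeq2. COL1A1 and SPARC were at 1.03 and 1.21 times the control level. The rest were below it, at 0.590 (HAND2) to 0.848 (COL3A1) times, besides DES, which had 0 to 13 reads. The part of these markers in the members' values was not tested. Hepatocyte, cholangiocyte and endothelial markers summed to at most 6.45, 4.37 and 2.98 RPM in any library. Leukocyte and Kupffer cell markers summed to 10.2 and 36.3 RPM in the controls and to at most 8.48 RPM after LIX1L siRNA. Most of this was CD14, at 8.81 and 35.7 RPM in the controls and 4.72 to 7.81 RPM after LIX1L siRNA. PTPRC was at most at 1.21 RPM, and CD68 and CD163 had 0 to 2 reads per library. In bulk RNA, a lower level per cell and fewer expressing cells cannot be told apart.

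How well reads and siRNAs can separate LIX1L from LIX1 depends on how far their messages differ. Over 804 aligned bases of the coding sequences (1014 bases in LIX1L and 849 in LIX1, GENCODE 29 transcripts), 503 bases or 62.6% were the same. The longest identical run was 11 bases within the coding sequences and 17 bases over the whole transcripts. The window around that coding run is shown because it holds the longest run that the coding sequences of the paralogues have in common. It covers coding bases 390 to 479 of LIX1L and 180 to 269 of LIX1, counted from the A of the start codon, with the 31 bases that differ in capitals.
LIX1L: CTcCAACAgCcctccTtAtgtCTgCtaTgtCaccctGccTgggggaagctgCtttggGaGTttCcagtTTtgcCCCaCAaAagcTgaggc
LIX1: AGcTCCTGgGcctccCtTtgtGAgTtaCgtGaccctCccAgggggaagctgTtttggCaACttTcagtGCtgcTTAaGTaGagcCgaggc
The other related pairs were about as far apart. Coding identity was 60.2% for STAU1 and STAU2, 58.8% for TARBP2 and PRKRA and 63.9% for ADARB1 and ADARB2. The longest run these pairs had in common was 12 to 20 bases. ADARB1 and ADAR, also related, had 59.4% coding identity and a longest common run of 23 bases.

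LIX1L (ENSG00000271601) lies on the minus strand of GRCh38 chromosome 1, from 145933423 to 145958001, and encodes the silenced protein. It was at 26.4 and 35.5 RPM in controls 1 and 2 and at 6.60, 7.08 and 3.65 RPM in siLIX1L 1, 2 and 3. Both controls were above all 3 siLIX1L libraries, and siLIX1L 3 was the lowest. The mean fell from 30.9 ± 6.41 RPM (SD, n = 2) to 5.78 ± 1.86 RPM (SD, n = 3). On the log2(RPM + 0.5) scale the difference was -2.36 (95% interval -3.13 to -1.58, limma adjusted p = 0.0380). On the log2(FPKM + 1) scale of the main test, which shrinks changes in genes of low FPKM, limma gave -0.87 (SE 0.11, adjusted p = 0.0384). The call did not hold in limma without siLIX1L 1, 2 or 3 (adjusted p = 0.141, 0.230 and 0.0759). With any 1 library left out, LIX1L was still 4.52-fold to 6.14-fold lower. Genes overlapping LIX1L on the other strand are LIX1L-AS1, not analysed here, and ENSG00000280778, which had 0 reads in every library. The sources used here do not say whether counting kept strand.

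LIX1 (ENSG00000145721, chromosome 5, 97091867 to 97142872, minus strand), named for its expression in the embryonic limb, had 0 reads in both controls and in the 3 siLIX1L libraries. Its level was therefore below 0.202 RPM in each library, as far as counting error goes, and no change in it was detectable at this depth.

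**Figure D1:**
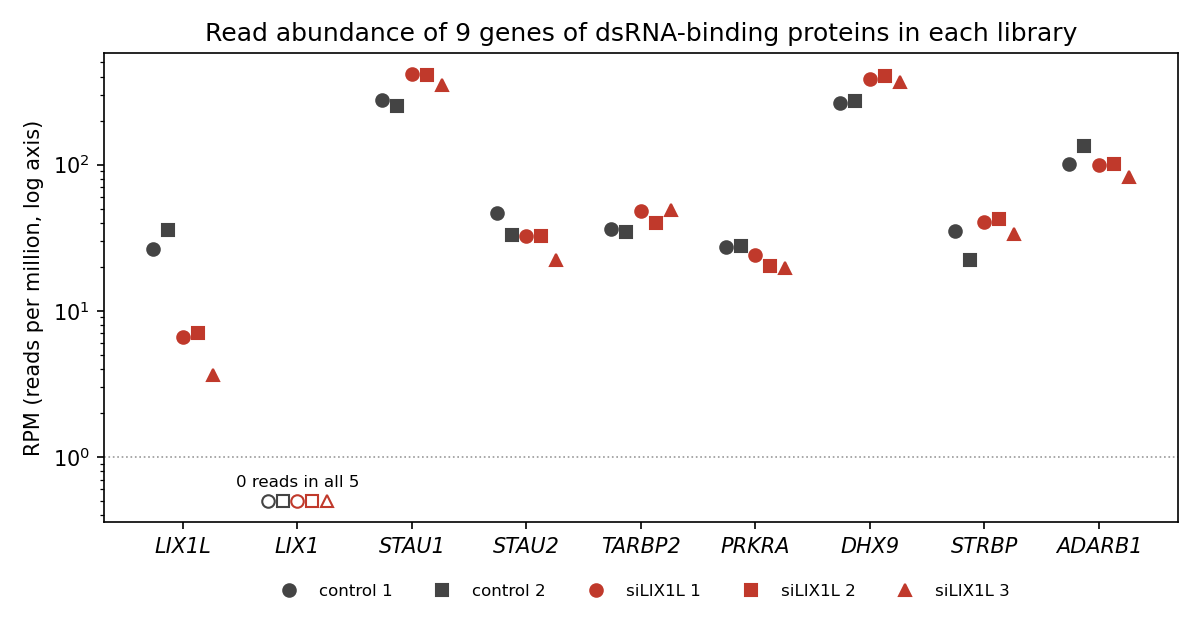
RPM (log axis) of the 9 genes in each library, with controls in grey and LIX1L siRNA in red; open symbols mark 0 reads and are drawn below the dotted line at 1 RPM. LIX1L falls from 26.4 and 35.5 RPM to 3.65 to 7.08 RPM, while the other detected genes move by less than 1.5 times in the mean.

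STAU1 and STAU2 encode Staufen proteins, which carry mRNAs along the cytoskeleton and mark some for decay together with the helicase UPF1. STAU1 (ENSG00000124214, chromosome 20, 49113339 to 49188367, minus strand) was at 279 and 251 RPM in the controls and at 414, 411 and 348 RPM in siLIX1L 1, 2 and 3. All 3 siLIX1L libraries were above both controls. The difference was 0.56 in log2(RPM + 0.5) with a 95% interval of 0.13 to 0.99. It did not pass over all genes, with limma adjusted p = 0.113 on the log2(FPKM + 1) scale and 0.126 on the log2(RPM + 0.5) scale. STAU2 (ENSG00000040341, chromosome 8, 73420369 to 73747708, minus strand) was at 46.8 and 33.1 RPM in the controls and at 32.7, 32.3 and 22.2 RPM in siLIX1L 1, 2 and 3. Its groups did not overlap in RPM, though control 2 exceeded siLIX1L 1 by less than 0.5 RPM, and they did overlap after quantile normalization. STAU2 did not reach 1 FPKM, because the deposited FPKM is per gene span, introns included, and was not in the main test. The difference in log2(RPM + 0.5) was -0.45 (95% interval -1.07 to 0.16, limma adjusted p = 0.321). ENSG00000258677 overlaps STAU2 on the same strand, so some reads could belong to either.

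TARBP2 and PRKRA encode TRBP and PACT, paralogous partners of DICER1 in microRNA processing. TRBP restrains the kinase PKR and PACT activates it. TARBP2 (ENSG00000139546, chromosome 12, 53500921 to 53506431, plus strand) was at 36.4 and 34.6 RPM in the controls and at 47.8, 40.0 and 49.1 RPM in siLIX1L 1, 2 and 3. Each siLIX1L library was above both controls, by a margin in siLIX1L 2 that was smaller than the spread among the siLIX1L libraries. The difference in log2(RPM + 0.5) was 0.35 (95% interval -0.10 to 0.81) and did not pass (limma adjusted p = 0.245 in log2(FPKM + 1)). PRKRA (ENSG00000180228, chromosome 2, 178431414 to 178451512, minus strand) was at 27.2 and 27.5 RPM in the controls and at 24.2, 20.1 and 19.6 RPM in siLIX1L 1, 2 and 3. All 3 siLIX1L libraries were below both controls. The difference in log2(RPM + 0.5) was -0.36 (95% interval -0.84 to 0.12) and did not pass either (limma adjusted p = 0.267 in log2(FPKM + 1)). PJVK lies across PRKRA on the other strand, so its reads may not be separable from those of PRKRA.

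DHX9, also called RNA helicase A, unwinds RNA duplexes in the nucleus. DHX9 (ENSG00000135829, chromosome 1, 182839369 to 182887751, plus strand) was at 262 and 270 RPM in the controls and at 384, 403 and 365 RPM in siLIX1L 1, 2 and 3. The gap between the groups was wider than the range within either of them. With a difference of 0.53 in log2(RPM + 0.5), a 95% interval of 0.13 to 0.93 and limma adjusted p = 0.103 in log2(FPKM + 1), DHX9 had the smallest adjusted p in the main test among the members other than LIX1L. An annotated pseudogene, DHX9P1, could have taken part of its reads.

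STRBP encodes the spermatid perinuclear RNA-binding protein. STRBP (ENSG00000165209, chromosome 9, 123109500 to 123268576, minus strand) was at 35.1 and 22.2 RPM in the controls and at 40.5, 42.4 and 33.7 RPM in siLIX1L 1, 2 and 3. Control 1 lay within the siLIX1L range, so the groups overlapped in RPM, and they came apart under median-ratio scaling and quantile normalization. Its difference in log2(RPM + 0.5) was 0.46 (95% interval -0.13 to 1.05, limma adjusted p = 0.294). ADARB1 encodes ADAR2, an enzyme that turns adenosine into inosine in RNA duplexes. ADARB1 (ENSG00000197381, chromosome 21, 45073853 to 45226560, plus strand) was at 101 and 135 RPM in the controls and at 98.9, 100 and 82.1 RPM in siLIX1L 1, 2 and 3. In RPM the groups were only just apart, and they overlapped under median-ratio scaling and quantile normalization. For ADARB1 the difference in log2(RPM + 0.5) was -0.32 (95% interval -0.81 to 0.17, limma adjusted p = 0.375).

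The siRNA target was the 1 member called by each tool. In the main test, limma on log2(FPKM + 1), 1.87% of 6464 genes passed an adjusted p of 0.05. Of the 5 members tested there, 1 passed, LIX1L, and 4 did not. LIX1L met the minimum level of that test only through the controls. It was at 1.07 and 1.44 FPKM in controls 1 and 2 and at 0.268, 0.288 and 0.148 FPKM in siLIX1L 1, 2 and 3. In limma on log2(RPM + 0.5), where 0.921% of 13026 genes passed, 1 of 8 members passed and 7 did not, and LIX1L was again the one. With any 1 siLIX1L library left out, limma and edgeR called no gene at all (899 to 1773 genes at an unadjusted p under 0.05 in limma, 1760 to 3260 in edgeR). EdgeR on the recovered reads (0.891% of genes called) and DESeq2 (12.5% called) gave the same count, 1 of 8. The median difference of the 7 members other than LIX1L was 0.35 in log2(RPM + 0.5), with 4 positive and 3 negative, against -0.01 over all genes tested. In 6 of these 7 the groups did not overlap in RPM, 3 higher and 3 lower after LIX1L siRNA. Over all 13026 genes the groups did not overlap in 44.1%, in 22.2% with siLIX1L higher and in 21.8% with siLIX1L lower. The intervals of STAU1 and DHX9 reach up to 0.99 and 0.93 in log2(RPM + 0.5), and a p above the threshold does not show that these genes stayed the same.

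**Figure D2:**
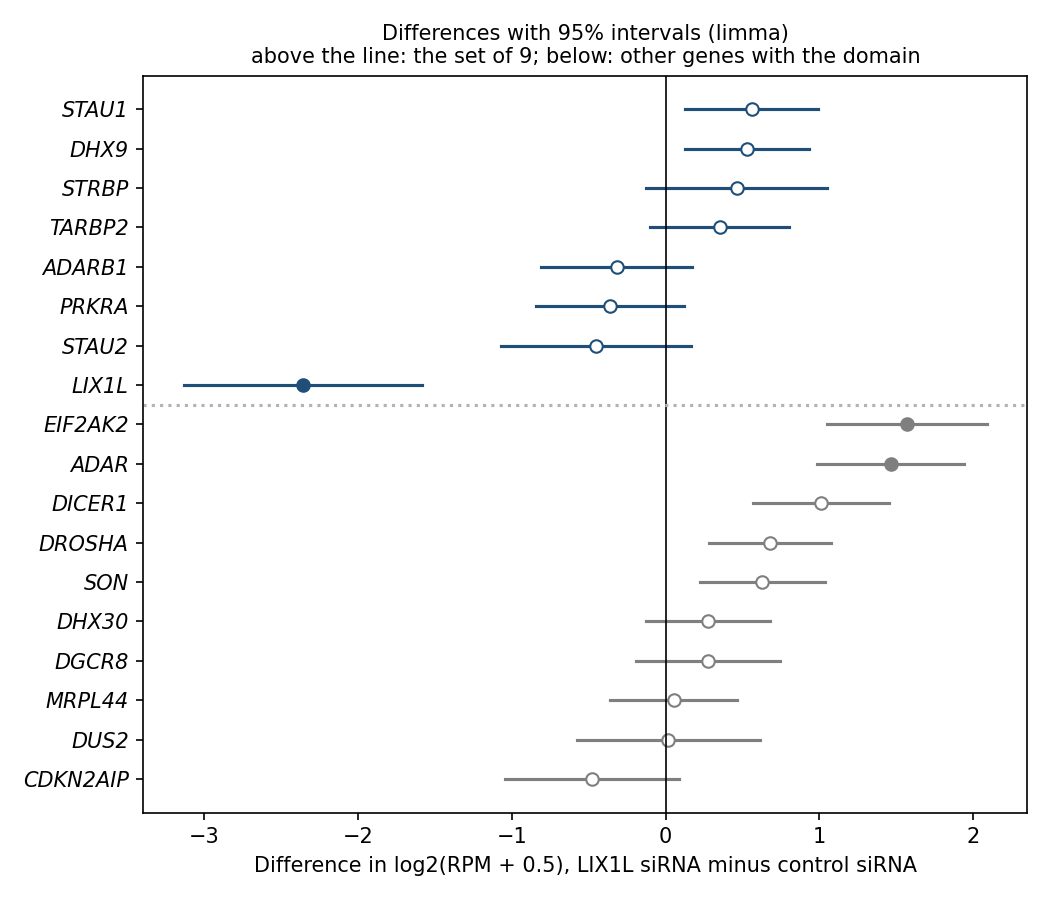
Difference in log2(RPM + 0.5) between LIX1L siRNA and control siRNA, with limma 95% intervals, for the 8 detected members (above the dotted line) and 10 detected other genes with the domain (below it); filled points passed an adjusted p of 0.05. LIX1L at -2.36, EIF2AK2 at 1.57 and ADAR at 1.46 are the filled points.

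Per kilobase of merged exons, the members covered a wide range of levels. STAU1 was the highest in the controls, at 64.7 ± 4.75 RPM per kb (SD, n = 2), followed by DHX9 at 47.2 ± 0.969. ADARB1 came next at 11.7 ± 2.38, then TARBP2 at 8.68 ± 0.316, LIX1L at 7.79 ± 1.61 and PRKRA at 6.95 ± 0.0588. The lower end was held by STAU2 at 4.44 ± 1.08 and STRBP at 3.54 ± 1.12. The ranges of TARBP2 and LIX1L, of LIX1L and PRKRA, and of STAU2 and STRBP overlapped, and the other detected neighbours in this order did not. After LIX1L siRNA, LIX1L was the lowest of the 8 detected genes at 1.45 ± 0.468 RPM per kb (SD, n = 3), below the range of STAU2 at 3.23 ± 0.664. STAU1 and DHX9 kept the first and second place at 95.5 ± 9.13 and 68.1 ± 3.37 RPM per kb. The ranges of TARBP2 and ADARB1, and of PRKRA and STRBP, overlapped there.

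**Figure D3:**
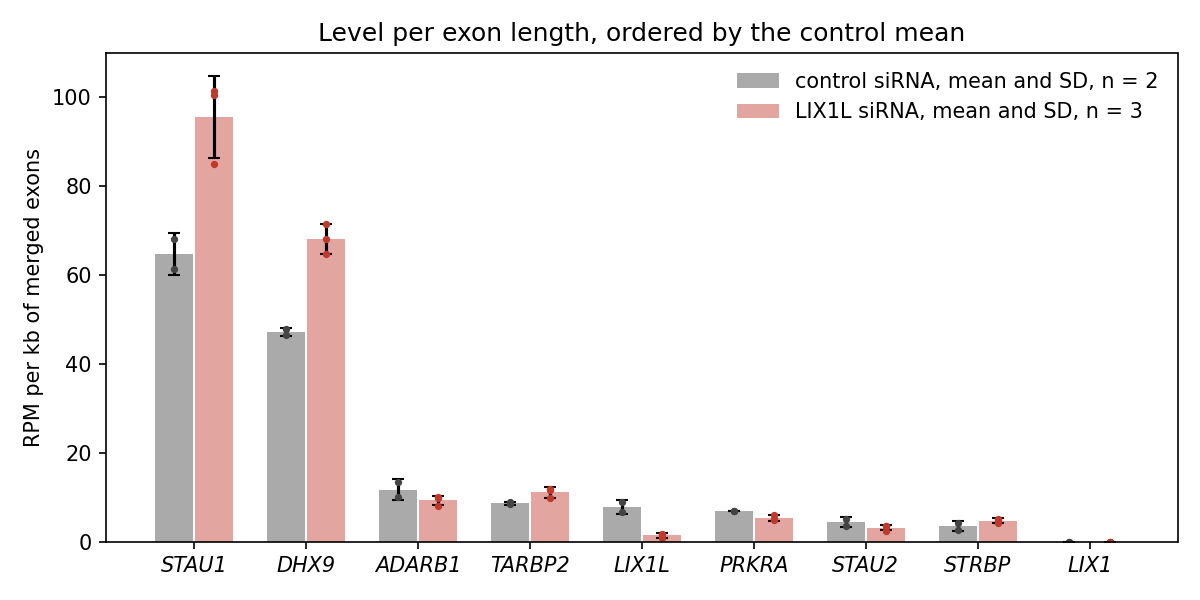
Level per exon length (RPM per kb of merged exons) of the 9 genes, ordered by the control mean; bars are means, error bars SD (n = 2 controls, n = 3 LIX1L siRNA) and points the libraries. LIX1L goes from 7.79 to 1.45 RPM per kb, from the middle of the order to the lowest detected place.

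Other human genes with a double-stranded RNA-binding domain were taken as a list of 13. ADARB2, ADAD1 and ADAD2, relatives of the editing enzymes, had 0 reads in every library, and 10 were detected. In the main test 2 of 8 rose, ADAR and EIF2AK2, none fell and 6 did not pass, where 0.743% of all genes rose. ADAR (ENSG00000160710, chromosome 1), which edits adenosine to inosine and is itself induced by interferon, was at 248 and 195 RPM in the controls and at 529, 649 and 654 RPM in siLIX1L 1, 2 and 3. EIF2AK2 (ENSG00000055332, chromosome 2), whose product PKR halts translation when it binds duplex RNA, was at 112 and 107 RPM in the controls and at 257, 348 and 386 RPM in siLIX1L 1, 2 and 3. In both genes every siLIX1L library was more than 2 times the higher control. Their differences in log2(FPKM + 1) were 1.30 (SE 0.18, limma adjusted p = 0.0384) and 1.20 (SE 0.18, limma adjusted p = 0.0394). Neither passed without 1 of the siLIX1L libraries (limma adjusted p = 0.0791 to 0.230), though the folds stayed at 2.66 to 2.94 for ADAR and 2.77 to 3.36 for EIF2AK2, and EIF2AK2 missed the threshold without control 2 (limma adjusted p = 0.0516). GPATCH11 overlaps EIF2AK2 on the other strand.

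DICER1 and DROSHA, the nucleases that cut microRNA precursors, and SON, a splicing cofactor, came next. DICER1 was at 28.9 and 27.4 RPM in the controls and at 55.8, 63.1 and 53.2 RPM in siLIX1L 1, 2 and 3. DROSHA was at 218 and 225 RPM in the controls and at 355, 362 and 347 RPM after LIX1L siRNA. SON was at 192 and 198 RPM in the controls and at 282, 323 and 301 RPM after LIX1L siRNA. In all 3 genes the siLIX1L libraries were above the controls. None of them passed in limma on log2(RPM + 0.5), with adjusted p = 0.0511 for DICER1, 0.0803 for DROSHA and 0.0926 for SON, nor in edgeR on all 5 libraries. DICER1 passed in edgeR with a replicate block (adjusted p = 0.0256), a fit that called 1146 of 13026 genes. Its edgeR difference was 1.028 without control 1 and 1.015 without control 2. In log2(FPKM + 1), DROSHA was at 0.447 without control 1 and 0.478 without control 2, and SON at 0.534 and 0.568. DESeq2 called all 3, with ADAR and EIF2AK2, which made 5 of the 10 detected list genes, all higher, where DESeq2 called 6.32% of all genes higher. DROSHA's cofactor DGCR8 (limma adjusted p = 0.409) and the helicase DHX30 (0.311) did not pass. The same held for the mitochondrial ribosomal protein MRPL44 (0.853) and for CDKN2AIP (0.239), in log2(FPKM + 1). DUS2, a tRNA-modifying enzyme, was at 10.8 ± 2.22 RPM (SD, n = 2) and 10.9 ± 1.57 RPM (SD, n = 3). CDKN2AIP was the 1 detected list gene with a negative difference in log2(RPM + 0.5), at -0.48 (95% interval -1.05 to 0.09). The median of the 10 in log2(RPM + 0.5) was 0.45, against -0.01 over all genes.

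Transcript length moved with these differences across the transcriptome. Over 13025 genes, which share libraries and are not independent, the difference in log2(RPM + 0.5) and the merged exon length had a Spearman rho of 0.325. The median difference was -0.28 among the shortest 20% of genes by exon length and 0.22 among the longest 20%. ADAR, EIF2AK2, DICER1 and SON belong to that longest class, as do STAU2 and ADARB1, which had negative differences. LIX1L, STAU1, TARBP2 and PRKRA are in the next shortest 20%, with a median of -0.11. With the length trend removed, the differences of ADAR and EIF2AK2 in log2(FPKM + 1) were 1.13 and 1.02 (limma adjusted p = 0.0574 and 0.0680), and that of LIX1L was -0.84 (limma adjusted p = 0.0574).

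**Figure D4:**
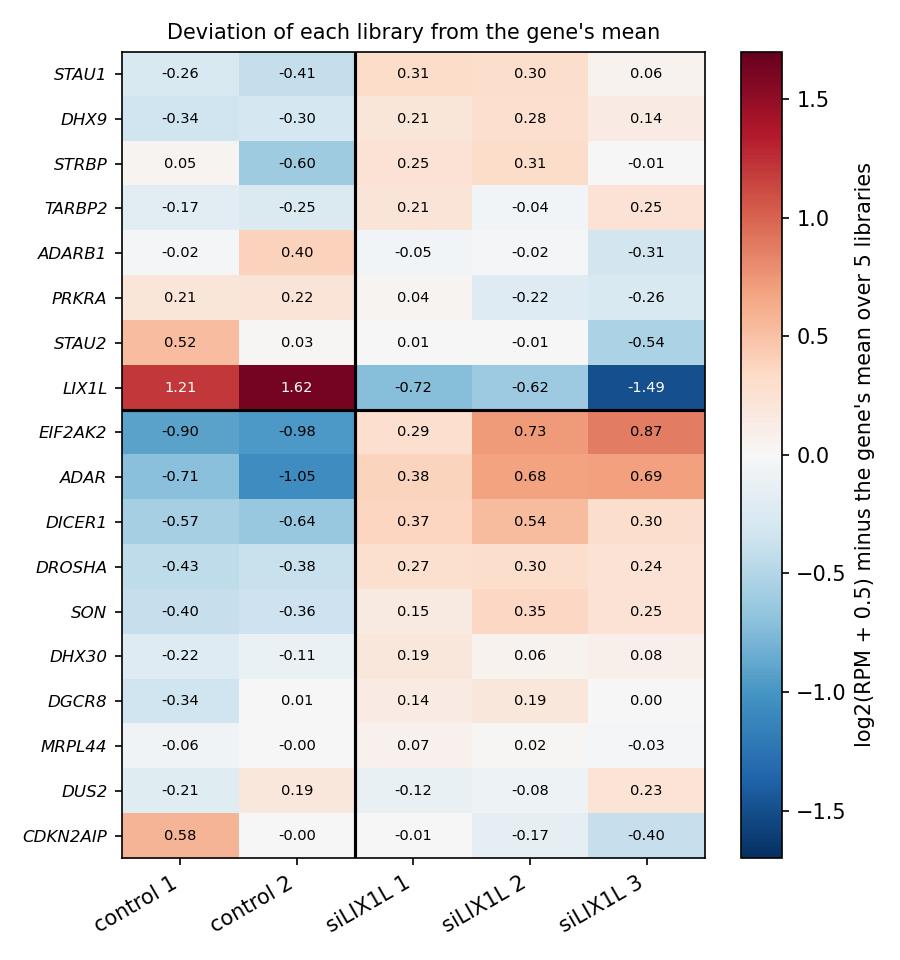
Deviation of log2(RPM + 0.5) from the gene's mean over the 5 libraries, for members (upper block) and other genes with the domain (lower block), with red above and blue below the mean. LIX1L is above its mean in both controls, EIF2AK2 and ADAR are below theirs in both, and the remaining rows hold smaller deviations.

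Because ADAR and EIF2AK2 rose and both are known interferon-induced genes, promoter windows of 300 bases (RefSeq, GRCh38.p14, 250 bases before to 50 after the annotated start) were searched on both strands for the core of the interferon-stimulated response element, GAAA, any 2 bases and GAAA again. It was found in 3.57% of 35116 windows and in 0 of 15 windows of the 7 members with an entry. In the list it was found in 1 of 20 windows (5%), that of EIF2AK2. The match begins 6 bases before the annotated start. It is shown in capitals on the minus strand of chr2:37156972-37157016, since it is the list's only match to this core.
EIF2AK2: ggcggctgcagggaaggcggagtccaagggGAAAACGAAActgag
None of the ADAR windows held these letters, which says nothing of other windows of that gene. Whether interferon had a part in the rise of either gene was not tested.

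Products that work with the members were taken as a list of 7. Of the 5 tested in the main test, ADAR and EIF2AK2, also in the list above, rose, where 0.743% of all genes did. DESeq2 called 4 of the 7 higher, these 2 with DICER1 and AGO2, where it called 6.32% of all genes higher. AGO2, the slicing Argonaute that receives RNA from DICER1 and TRBP, was at 51.4 and 36.2 RPM in the controls and at 83.9, 95.6 and 86.5 RPM in siLIX1L 1, 2 and 3. AGO2 was under 1 FPKM, and its difference of 1.03 in log2(RPM + 0.5) (95% interval 0.53 to 1.53) did not pass in limma (adjusted p = 0.0600). AGO2 passed in DESeq2 (adjusted p = 0.00143) and in edgeR with a replicate block (adjusted p = 0.0213). That block leaves siLIX1L 3 without weight, and edgeR with it called 1146 of 13026 genes. The edgeR difference of AGO2 was 1.257 without control 1 and 0.815 without control 2. UPF1, the decay partner of STAU1, was at 236 ± 63.1 RPM (SD, n = 2) and 261 ± 9.64 RPM (SD, n = 3), with overlapping groups. ILF2, a nuclear RNA-binding factor, was at 299 ± 36.1 RPM (SD, n = 2) and 283 ± 42.3 RPM (SD, n = 3), again with overlap. ZFR, a zinc finger RNA-binding protein, did not pass, with a difference of 0.34 in log2(FPKM + 1) (limma adjusted p = 0.266). Its value turned on the controls, at 0.59 without control 1 and 0.092 without control 2.

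To see whether the fall at LIX1L reached beyond the gene, genes in the files among the 5 nearest on each side of it were compared, 9 in all. HJV and ENSG00000280778 had 0 reads, and ANKRD35 had 0 to 4 reads. Of the 6 with enough reads, TXNIP, an inhibitor of thioredoxin, fell, and 5 did not pass in limma on log2(RPM + 0.5), where 0.921% of all genes passed. TXNIP, with its midpoint 48.8 kb from that of LIX1L, was at 675 and 490 RPM in the controls and at 171, 189 and 144 RPM in siLIX1L 1, 2 and 3. The groups were far apart, with a difference of -1.78 in log2(RPM + 0.5) (95% interval -2.30 to -1.26, limma adjusted p = 0.0348). In log2(FPKM + 1) TXNIP missed the threshold after quantile normalization (-1.40, limma adjusted p = 0.0518), with the replicate block (0.0555), with the length trend removed (0.0564), with siLIX1L 1 and 2 averaged (0.168), without a minimum level (0.103) and without any 1 siLIX1L library (0.0759 to 0.230). POLR3GL, a subunit of RNA polymerase III that lies between them, was at 8.54 and 13.1 RPM in the controls and at 3.77, 4.83 and 8.31 RPM in siLIX1L 1, 2 and 3. All 3 siLIX1L libraries were below both controls, siLIX1L 3 only just. The difference in log2(RPM + 0.5) was -0.92 (95% interval -1.80 to -0.04) and did not pass over all genes (limma adjusted p = 0.183). ANKRD34A, the nearest of the 6 with enough reads, had a difference of -0.21 in log2(RPM + 0.5) with an interval that spans 0 (95% interval -0.85 to 0.42). On the other side RBM8A, an exon junction protein, was at 29.1 ± 5.99 RPM (SD, n = 2) and 41.6 ± 4.56 RPM (SD, n = 3). Its difference of 0.52 in log2(RPM + 0.5) (95% interval 0.003 to 1.03) did not pass (limma adjusted p = 0.196).

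**Figure D5:**
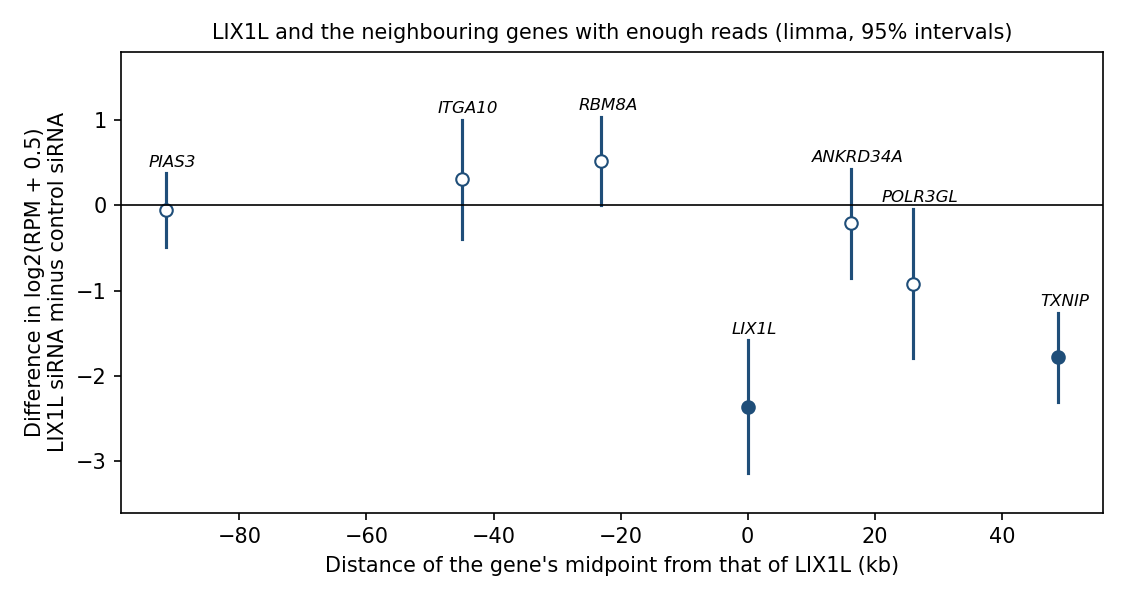
Difference in log2(RPM + 0.5) with limma 95% intervals for LIX1L and 6 neighbours with enough reads, against the distance of each gene's midpoint from that of LIX1L (kb); filled points passed an adjusted p of 0.05. TXNIP at -1.78 is the 1 filled point besides LIX1L, and ANKRD34A and POLR3GL, which lie between them, are open.

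Genes whose pattern over the 5 libraries was most like that of LIX1L were sought by the root mean square distance between the genes' log2(RPM + 0.5) profiles, each centred on its mean. The nearest was JAM2, a junctional adhesion molecule, at a distance of 0.17 log2 units. JAM2 had 242 and 344 reads in the controls and 58, 56 and 47 reads in siLIX1L 1, 2 and 3. RARRES1, STON1, FAIM2 and the chemokine CCL2 followed at 0.21 to 0.26. With 5 libraries in 2 groups this likeness mostly restates a fall of similar size, and is given as a description. CCL20, the chemokine in the series title, had 74 and 56 reads in the controls and 4, 5 and 1 reads in siLIX1L 1, 2 and 3.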

How the data were processed

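Total RNA of LX-2 cells was sequenced after standard Illumina library preparation, per the labels' protocols. The authors deposited FPKM for 19936 genes per library, per the file headers, and for siLIX1L 3 also a raw read count and a length per gene. Bowtie 0.12.2 and the build mm8 are named in the submitters' processing notes, a mouse build that does not match the human identifiers, so build and counting tool are uncertain. Deposited lengths equal the gene spans of GENCODE 29 on GRCh38, introns included, for 98.2% of 19926 genes found there, and coordinates are from that annotation.

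FPKM times length gave whole reads (tolerance 0.01 reads) for 100% of values above 0, equal to the deposited counts of siLIX1L 3 in all 19936 genes. Differences were tested on log2(FPKM + 1) over the 6464 genes that reached 1 FPKM in 2 or more libraries, with limma 3.58.1 under R 4.3.3. The limma test was two-sided, with trended and robust variances and Benjamini-Hochberg adjustment at 0.05. Members under that minimum were tested with limma on log2(RPM + 0.5) over 13026 genes that pass edgeR's default read filter, which also gives the intervals. DESeq2 1.42.0 and edgeR 4.0.16 with TMM scaling and its quasi-likelihood test were alternatives, each tested on simulated data. The simulated reads had the same dispersion in every library, unlike the unequal spread here, so they do not show how these tools perform on these data. Plain folds are ratios of mean RPM. The members, lists, named genes and alternatives were chosen with earlier results of these data known. Named are the members, the domain list, in the partner list those past the threshold and up to 3 others with the smallest p besides UPF1 and ILF2 (named for their roles after their values were seen), the nearest 5 genes each side of LIX1L, the 5 genes nearest in pattern, and CCL20. Removal of a lowess trend on merged exon length and edgeR with a block were added after seeing the data. A gene of the domain and partner lists and a neighbour of LIX1L are not reported here, and counts leave them out.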

Additional observations from a re-analysis of the deposited data

How the results depend on the processing

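LIX1L kept its direction in every setting run. Its difference in log2(FPKM + 1) lost the call without a minimum level (-0.87), with siLIX1L 1 and 2 averaged (-0.89) and with the length trend removed (-0.84), and ranged from -0.99 to -0.75 over the libraries left out, failing without any 1 siLIX1L library. The 7 other detected members kept direction and stayed uncalled in all 79 fits of the main alternatives. STRBP alone passed elsewhere, in edgeR without control 1, at a difference of 0.77. That fit rests on 1 control and called far more genes than edgeR on all libraries. Without control 2 the edgeR difference of STRBP was 0.17. Of all genes, 121 passed the threshold; the count was 0 without a minimum level (3407 at an unadjusted p under 0.05) and with siLIX1L 1 and 2 averaged (976), 2 with the length trend removed, 1673 in DESeq2, 1146 in edgeR with a replicate block, and 0 to 1650 over the libraries left out (1650 without control 1, 337 without control 2, and 0 without any siLIX1L library, with 899 to 1773 at an unadjusted p under 0.05; edgeR 0 too). Where 1 control remains, it is assumed to vary like the other group.

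Of the other genes with the domain, 2 passed. The count was 0 without a minimum level, with siLIX1L 1 and 2 averaged, with the length trend removed and with the replicate block in limma, 3 in edgeR with it, 5 in DESeq2, and 0 to 4 over the libraries left out (4 without control 1, 1 without control 2). Replicate numbers 1 and 2 occur in both groups, but nothing in the labels pairs them. Deviations of same-numbered libraries from their group means correlated at -0.116 and -0.0863 over 13026 genes. The replicate block, which leaves siLIX1L 3 without weight, gave 94 genes and -0.82 for LIX1L (limma adjusted p = 0.0284).

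Signs turned in uncalled genes only. DUS2 was at -0.0039 in edgeR and -0.12 in edgeR with the block. UPF1 ranged from -0.093 (without control 2) to 0.38 over the libraries left out and was at -0.0010 with the length trend removed. ILF2 was at 0.15 with quantile normalization, 0.037 and 0.012 with the replicate block in limma and edgeR, ranged from -0.20 to 0.037 over the libraries left out (0.036 without control 2), and was at 0.12 with the length trend removed. PIAS3 ranged from -0.11 to 0.016 (without control 2) over the libraries left out. The cause was not tested. Below 3 reads per library, as for LIX1, depth limits what can be said. LIX1L has no value at a minimum of 5 FPKM.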
